A study of Homo sapiens with 4 samples.

Results

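The genes described here had transcripts assigned to at least 2 annotated promoters at a good level in T47D breast cancer cells. A promoter was a group of RefSeq transcripts that shared a transcription start group identifier (a TSS name) in the deposited tables, and its level was the summed FPKM (fragments counted on a transcript, scaled for its length and for the size of the library) of those transcripts. A gene was a member when 2 or more of its promoters reached 10 FPKM in vehicle-treated cells, and 31 of 23287 genes did so. Of the 23287 genes, 3607 listed at least 2 promoters and 2945 had at least 1 promoter at 10 FPKM, while 452 listed several promoters with exactly 1 at that level. The members held 63 such promoters among 76 listed, 3 of them in *HNRNPF* and 2 in each of the other 30 genes. The remaining 13 promoters were listed at 0 in vehicle-treated cells, and 12 of the 13 were also at 0 after progestin. The members were thus chosen by their FPKM in the vehicle library, and their levels there are a description.

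T47D is an established human luminal breast cancer cell line that expresses the progesterone receptor (PR). R5020 is a synthetic progestin, and ethanol (EtOH) was its vehicle. Poly(A)+ RNA came from cells treated with 10 nM R5020 or with EtOH for 3 h, and the PR binding sites came from chromatin immunoprecipitation of cells treated with 10 nM R5020 for 1 h. All cells were moved to charcoal-stripped, hormone-poor serum beforehand, 24 h before harvest for RNA and 3 days for chromatin. Each of these 3 preparations was 1 library, so no difference below has a replicate check and no test between conditions was made. The coverage columns (coverage times length over the read length of 50 nt) corresponded to 35151493 read equivalents in the EtOH library and 36203604 in the R5020 library. The study itself reported more uniquely aligned reads for EtOH than for R5020, so these sums do not rank the libraries by depth. Behind each of the 63 promoters stood 603 to 134995 read equivalents (median 6070) in EtOH. Of 8 luminal markers, 6 lay between 17.2 FPKM (*ESR1*) and 608 FPKM (*KRT19*) in EtOH and between 10.9 (*ESR1*) and 477 (*KRT19*) in R5020. Of these, *PGR*, the PR gene, was at 23.7 and 15.3 FPKM, *GATA3* at 253 and 126, and *FOXA1* at 64.3 and 14.7. The other 2, *KRT8* and *KRT18*, were listed at 0 in EtOH with a failed quantification status, and at 285 and 174 FPKM in R5020. Of 6 markers of other cell types, *VIM*, *KRT5*, *KRT14*, *PTPRC* and *PECAM1* stayed at or below 0.527 FPKM in both libraries, and *COL1A1* was at 5.12 FPKM in EtOH and 3.31 in R5020. A failed status in EtOH touched 3 of the 3607 genes with several promoters, and none of them passed the same rule in R5020.

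Many human genes can be transcribed from more than 1 promoter. Alternative promoters give messages with different first exons, which can change the leader of the message or the start of the protein, and they can answer to different signals although the rest of the gene is shared. PR is a ligand-activated transcription factor that, once bound by a progestin, binds DNA at hormone response elements in promoters and in distant enhancers. The stimulated use of particular promoters by progestin is the question that the comparison of promoter levels, promoter shares and PR sites addresses.

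The 2 main promoters of these genes were usually close together. The nearest pair of qualifying starts lay within 100 bp in 3 genes, beyond that and up to 500 bp in 13, up to 2 kb in 8, up to 10 kb in 2 and farther in 5, with a median of 489 bp. The extremes were 1 bp in *DSCAM-AS1* and 112599 bp in *PRLR*. In 30 of the 31 genes the leading transcripts of the qualifying promoters shared their 3′ end. The lengths of the 2 highest of these transcripts differed by 8 to 1502 nt (median 174 nt). The most upstream qualifying promoter was the stronger in 19 genes. The leading promoter held between 50.1% and 86.6% of the gene's FPKM in EtOH (median 64.7%). Against GENCODE release 44 on the GRCh37 assembly (hg19), 52 of the 63 starts lay within 100 bp of an annotated start of the same gene. Of the 63, 23 were at the outer edge of the gene, 26 inside an intron of a longer annotated transcript and 14 inside an exon of one.

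The genomic sequence before several of these starts is shown because the results turn on these genes. They include *GLUL*, with the largest rise of a qualifying promoter, *SATB1*, which fell from both starts, and *CYB561*, with the largest share shift. The others are *NME2*, with a PR site over a start, and *PRLR*, with the most distant starts. Each run is the part of the 100 bases just upstream of the start that overlaps no GENCODE exon, read 5′ to 3′ on the gene's strand from GRCh37, and capitals mark every CG dinucleotide. The intervals are chr1:182361342-182361441 (minus strand) for *GLUL* TSS21963, chr3:18480266-18480365 and chr3:18466862-18466929 (both minus) for *SATB1* TSS24951 and TSS1768, chr17:61523723-61523822 and chr17:61523546-61523605 (both minus) for *CYB561* TSS21842 and TSS18088, chr17:49243533-49243632 (plus) for *NME2* TSS3314, and chr5:35230824-35230923 and chr5:35118225-35118324 (both minus) for *PRLR* TSS16988 and TSS25185.
GLUL TSS21963: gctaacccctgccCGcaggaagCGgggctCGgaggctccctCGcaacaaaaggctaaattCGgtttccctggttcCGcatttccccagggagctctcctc
SATB1 TSS24951: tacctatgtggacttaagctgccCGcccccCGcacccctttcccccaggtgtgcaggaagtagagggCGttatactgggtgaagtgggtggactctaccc
SATB1 TSS1768: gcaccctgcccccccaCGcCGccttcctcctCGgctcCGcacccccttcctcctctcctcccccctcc
CYB561 TSS21842: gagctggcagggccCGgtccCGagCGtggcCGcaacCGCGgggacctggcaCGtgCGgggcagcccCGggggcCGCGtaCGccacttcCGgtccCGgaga
CYB561 TSS18088: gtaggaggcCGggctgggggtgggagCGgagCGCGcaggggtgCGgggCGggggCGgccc
NME2 TSS3314: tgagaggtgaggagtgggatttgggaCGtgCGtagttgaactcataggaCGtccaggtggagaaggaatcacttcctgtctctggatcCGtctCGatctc
PRLR TSS16988: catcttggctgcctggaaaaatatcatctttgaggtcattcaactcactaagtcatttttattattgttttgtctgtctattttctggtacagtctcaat
PRLR TSS25185: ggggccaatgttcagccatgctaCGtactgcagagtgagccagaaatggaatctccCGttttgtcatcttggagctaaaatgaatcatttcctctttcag
The *CYB561* runs were 79% and 85% G+C with 14 and 7 CG pairs, while the run before *PRLR* TSS16988 was 34% G+C and held no CG. The run before *PRLR* TSS25185 ends in a pyrimidine-rich stretch and AG at the exact edge of an exon that GENCODE gives as internal, the form of a splice acceptor. Of the 63 starts this was the only one so placed (1.59%), beside 16 of 2940 starts at 10 FPKM in EtOH (0.544%).

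In the window from 250 bases before to 50 after each start, the 63 promoters had a median G+C content of 66%, against 64.3% for all 2940 promoters at 10 FPKM in EtOH whose strand was known. A CpG ratio (observed over expected) of 0.6 or more was found in 51 of the 63 (81.0%) and in 88.0% of the 2940. The letters TATAAA occurred on the gene strand within the 50 bases before 1 of the 63 starts (1.59%), as they did before 1.09% of the 2940.

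Most promoters of these genes kept their level after progestin. A promoter was called changed at 1.5-fold on the log2(FPKM + 1) scale, which understates the change of low promoters. In R5020, 2 of the 63 promoters were higher (3.17%) and 11 were lower (17.5%), and 38 stayed within 1.2-fold. Over all promoters at 10 FPKM or more in EtOH, 5.27% were higher and 5.51% lower, and over all at 1 FPKM or more in either library 8.8% were higher and 5.62% lower. The median log2 difference was -0.05 over the 63, -0.02 over all at 10 FPKM in EtOH and 0.01 over all at 1 FPKM. The 2 higher promoters belonged to *GLUL* and *KIAA0182*, and the 11 lower ones to *CDV3* and *SATB1* (both promoters each) and to *CYB561*, *DSCAM-AS1*, *ENSA*, *FKBP2*, *HNRNPF*, *NME2* and *RPS27A*. In *CYB561*, *ENSA*, *HNRNPF*, *NME2* and *RPS27A* the lower promoter lay within 500 bp of another qualifying start. The summed level of each of these genes stayed within 1.5-fold. Such calls depend on how reads were divided between near starts, and merging of near starts was not applied to this count. In *ENSA* the fall was in FPKM and hardly in reads, as given with that gene. Counted on read equivalents, not scaled for library size, 11 promoters were again lower, with the second *FKBP2* promoter in place of that of *ENSA*. On this count 1 was higher (*GLUL*). The *KIAA0182* promoter was near the line on both, with a log2 difference of 0.56 in reads and 0.59 in FPKM. No gene had 1 promoter called higher and another called lower on FPKM. This balance moved with the library that chose the genes: with the same rule applied to R5020 and counted over promoters at 10 FPKM there, 10 of 85 promoters were higher (11.8%) and 7 lower (8.24%), beside 12.7% and 2.44% of all 3193 such promoters.

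**Figure D1:**
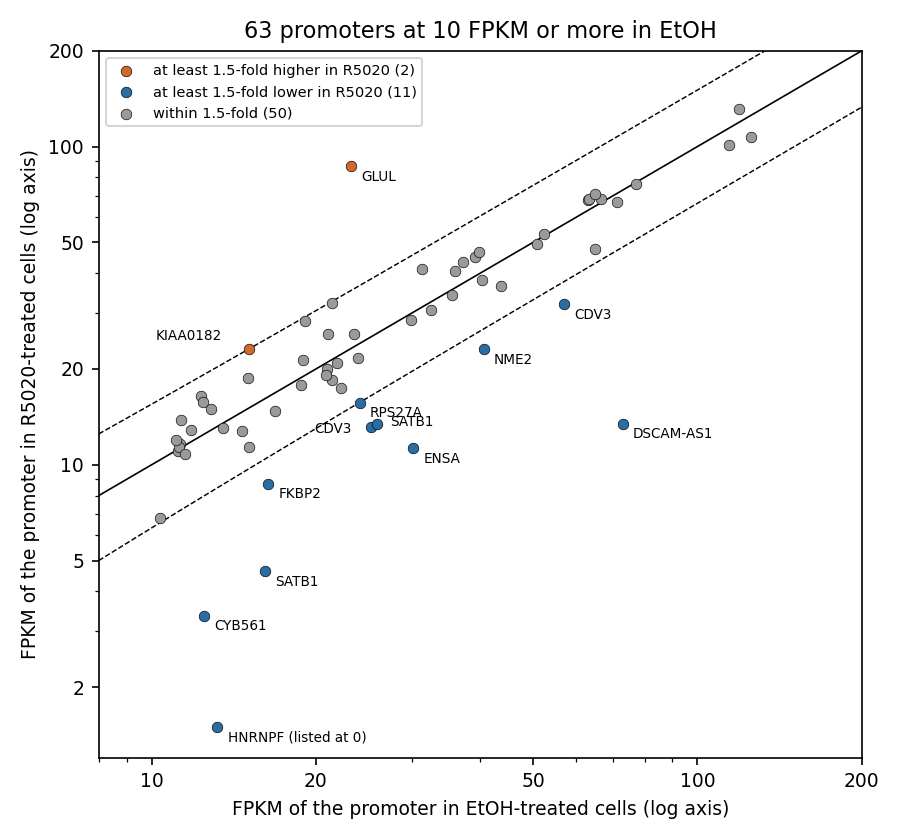
FPKM of each of the 63 qualifying promoters in EtOH-treated (x) and R5020-treated (y) T47D cells, both on log axes, 1 library each. The solid line is equality and the dashed lines are 1.5-fold on the log2(FPKM + 1) scale: 2 points lie above the upper line and 11 below the lower, and the *HNRNPF* promoter listed at 0 is drawn at 1.5.

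As whole genes, with all promoters summed, 1 of the 31 was at least 1.5-fold higher (*GLUL*) and 4 were lower (*DSCAM-AS1*, *SATB1*, *CDV3* and *FKBP2*). Among all genes at 1 FPKM or more in either library, 7.67% were higher and 4.14% lower. Summed FPKM in EtOH ran from 22.4 (*GOLM1*) to 191 (*YWHAZ*), with a median of 61.3.

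The share of a promoter was its percentage of the gene's FPKM, and the share shift of a gene was the sum of the absolute share differences between the libraries divided by 2, in percentage points. The shift reached 10 points in 7 of the 31 genes (22.6%). Among all genes with at least 2 promoters and 10 FPKM in both libraries it did so in 19.4%, the members being 31 of the 499. The 499 are an unlike set, with a median shift of 0. Apart from the members, they were not required to have more than 1 promoter above 0. Among the members the shift lay between 5 and 10 points in 8 and below 5 in 16. Its median there was 4.59 and its range ran from 0.168 (*SPINT1*) to 33.4 (*CYB561*). The promoter that led in EtOH also led in R5020 in 27 genes, the exceptions being *CYB561*, *NME2*, *HDLBP* and *HNRNPK*. The most upstream qualifying promoter gained share in 17 genes and lost it in 14. Cufflinks gives an interval for each FPKM that is computed within 1 library and does not cover the spread between cultures. For 6 of the 69 member transcripts above 0 in EtOH and 6 of the 67 in R5020, in *FDPS*, *HDLBP* and *PRLR*, the FPKM lay outside its own interval. Among the members' transcripts at 10 FPKM in EtOH, 46 of 68 (67.6%) had intervals that lay apart in the 2 libraries, 21 higher and 25 lower in R5020, as had 52.2% of all such transcripts. Of the 63 whose FPKM lay inside its interval in both libraries, 42 had intervals apart.

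**Figure D2:**
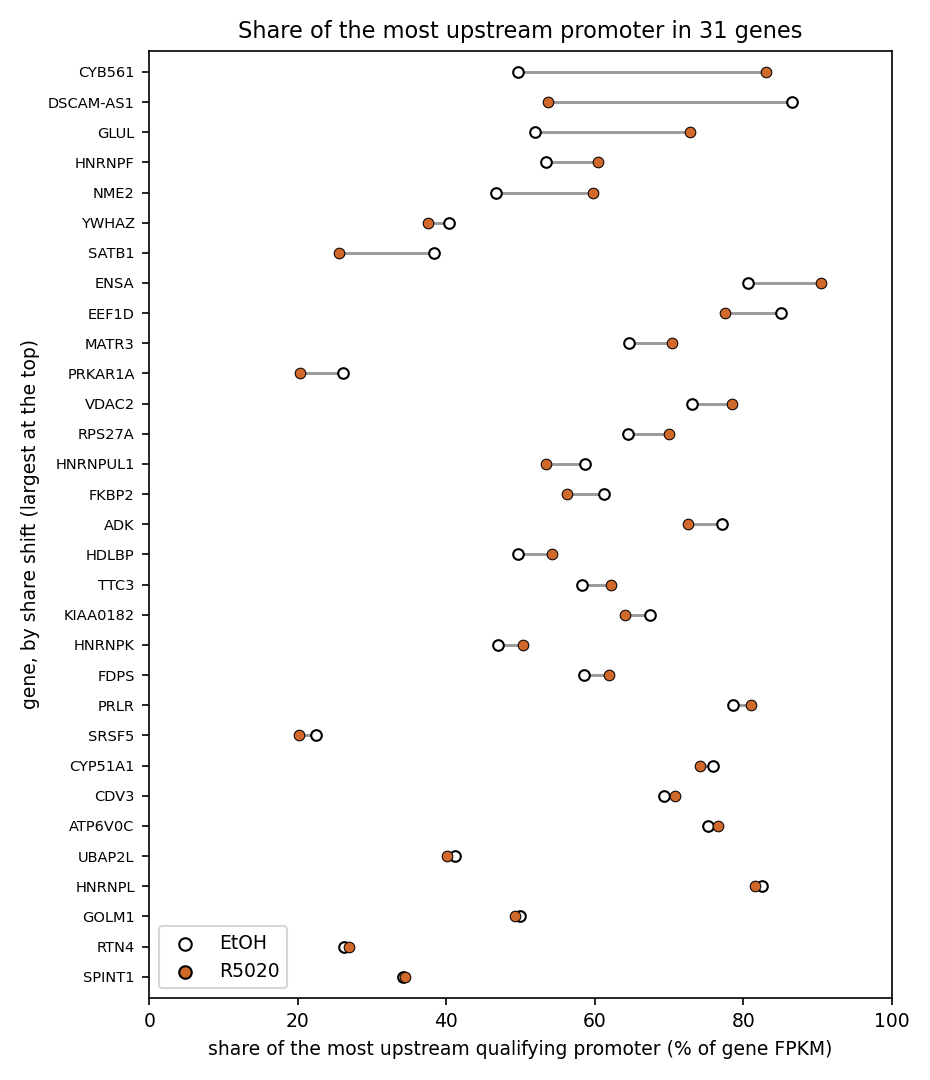
Share of the most upstream qualifying promoter in each of the 31 genes (percentage of gene FPKM) in EtOH (open circles) and R5020 (filled circles), 1 library each, ordered by share shift with *CYB561* (33.4 points) at the top and *SPINT1* (0.168) at the bottom. The long bars belong to the genes at the top, and in *YWHAZ* most of the shift came from a promoter that is not drawn.

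Among the enzymes, *GLUL*, which encodes glutamine synthetase, held the strongest rise. Its upstream promoter (TSS21963) was at 23.2 FPKM in EtOH (Cufflinks interval 22.0 to 24.4) and at 86.7 in R5020 (85.2 to 89.8), a log2 difference of 1.86. The promoter 802 bp downstream (TSS2602) was at 21.4 and 32.3 FPKM, a log2 difference of 0.57. That fell just short of 1.5-fold on the log2(FPKM + 1) scale, while the plain FPKM ratio was 1.51. The upstream promoter therefore went from 52.0% to 72.8% of the gene while the summed level went from 44.6 to 119 FPKM.

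*CYB561*, a transmembrane cytochrome that passes electrons from ascorbate, had the largest shift with little difference in its sum, 24.8 FPKM in EtOH and 19.8 in R5020. TSS21842 went from 12.3 to 16.4 FPKM and TSS18088, 177 bp downstream, from 12.5 to 3.36, a log2 difference of -1.63 for the latter. Nearly equal shares in EtOH (49.7% and 50.3%) became 83.0% and 17.0%. *NME2*, a nucleoside diphosphate kinase, also moved in share. Its TSS3314 was at 35.5 and 34.2 FPKM, while TSS24308, 450 bp downstream, was at 40.6 and 23.0 (log2 difference -0.79), so that the lead passed to the upstream promoter with a shift of 13.1 points. *NME2* overlaps a read-through transcript with its neighbour *NME1* and resembles that gene in sequence.

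The other enzymes, transporters and kinase subunits moved little between promoters. The shift was 5.76 points in *PRKAR1A* (a regulatory subunit of protein kinase A), 5.49 in *VDAC2* (a channel of the outer mitochondrial membrane) and 4.59 in *ADK* (adenosine kinase). It was 3.27 in *FDPS* and 1.78 in *CYP51A1*, enzymes of isoprenoid and cholesterol synthesis, and 1.34 in *ATP6V0C*, a proton pump subunit. None of their promoters passed 1.5-fold.

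**Figure D3:**
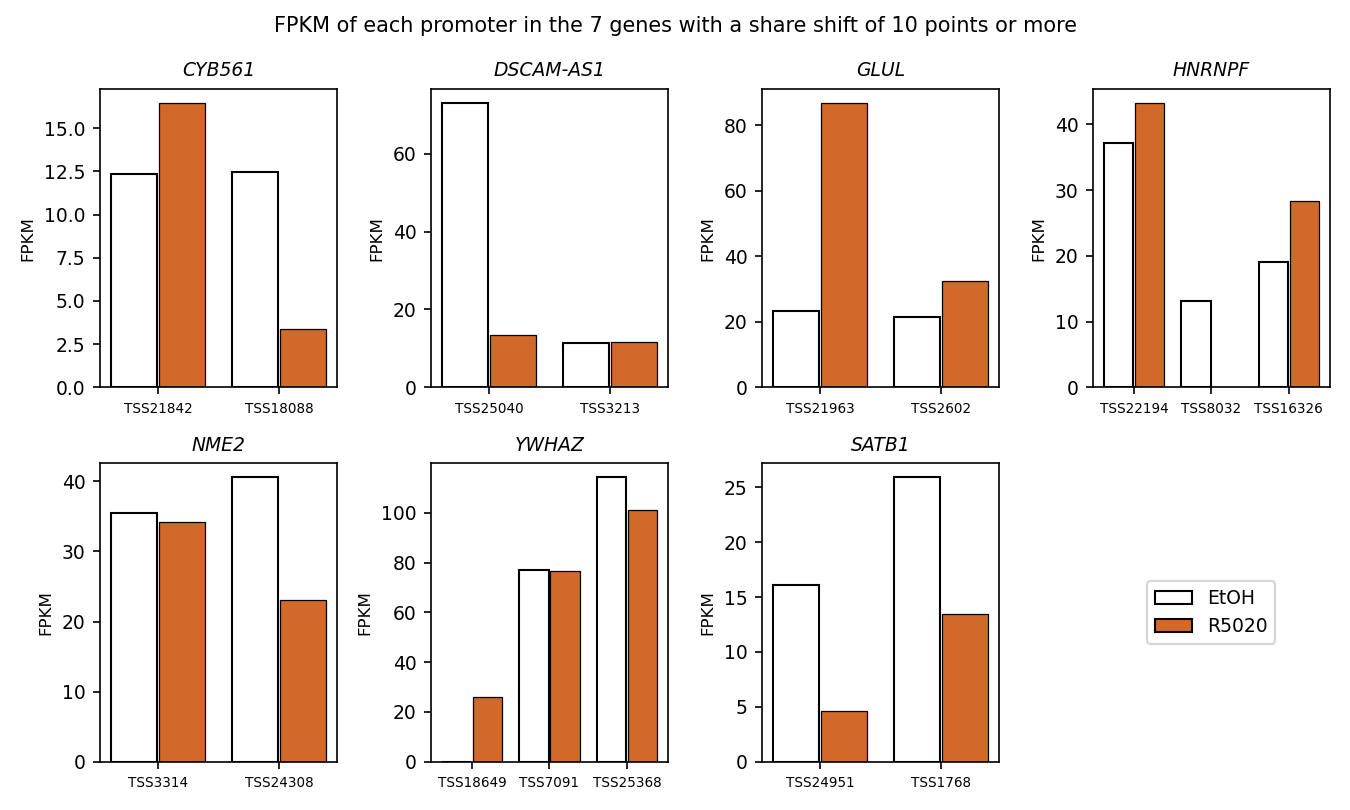
FPKM of every promoter above 0 in the 7 genes with a share shift of 10 points or more, in EtOH (white bars) and R5020 (orange bars), 1 library each and ordered from upstream to downstream. The upstream *GLUL* bar stands at 86.7 FPKM in R5020 against 23.2 in EtOH, and in *DSCAM-AS1* the bar of TSS25040 drops from 72.9 to 13.5 beside an even TSS3213.

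Of the genes for nuclear and chromatin proteins, *SATB1*, an organiser of chromatin loops, fell from both promoters, which lie 13436 bp apart. TSS24951, the upstream one, was at 16.1 FPKM in EtOH (15.3 to 17.0) and at 4.63 in R5020 (4.19 to 5.07), a log2 difference of -1.60. TSS1768 was at 25.9 and 13.5 FPKM (log2 difference -0.90). The downstream promoter went from 61.6% to 74.4% of a gene that fell from 42.0 to 18.1 FPKM. In *KIAA0182* (symbol GSE1 in GENCODE), by contrast, both promoters were higher in R5020, at 31.3 and 41.4 FPKM for TSS18307 and at 15.1 and 23.2 for TSS16575, 1895 bp downstream. The latter, at a log2 difference of 0.59, lay just past 1.5-fold, and the share shift was 3.43 points.

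Several members encode RNA-binding proteins. Of a list of 29 RNA-binding and splicing genes, 3 listed several promoters and all 3 were members (*HNRNPF*, *HNRNPK* and *SRSF5*), while *HNRNPL*, *HNRNPUL1*, *MATR3* and *HDLBP*, which also bind RNA, were not in that list. None of the 29 reached 1.5-fold as a whole gene in either direction. *HNRNPF*, a splicing regulator, had the largest shift among them, 19.0 points. Its TSS22194 was at 37.2 and 43.2 FPKM, TSS8032, 40 bp downstream, at 13.2 in EtOH and listed at 0 in R5020, and TSS16326, 1397 bp from the most upstream, at 19.1 and 28.3. Their sum hardly differed, 69.5 against 71.5 FPKM. The leading transcripts of TSS22194 and TSS8032 share their 3′ end and are 2632 and 2633 nt long. The split between these promoters, the 0 included, therefore depends on how reads were assigned to transcripts. With starts within 500 bp merged, the shift of *HNRNPF* was 12.0 points. In *HNRNPK* the levels were 63.1 and 68.0 FPKM for TSS336 and 71.3 and 67.1 for TSS11409, so the lead changed hands with a shift of only 3.33 points. *HDLBP*, with starts 42869 bp apart, also changed its leader on a shift of 4.56 points, from 23.5 to 25.7 FPKM upstream and from 23.8 to 21.7 downstream. The shift was 5.77 points in *MATR3*, 5.34 in *HNRNPUL1*, 2.33 in *SRSF5* (starts 5 bp apart) and 0.898 in *HNRNPL*.

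Genes of translation and protein handling had shifts from 5.01 to 7.60 points. *EEF1D*, a subunit of an elongation factor, was at 64.8 and 47.8 FPKM from TSS25523 and at 11.3 and 13.9 from TSS26149, a shift of 7.60 points. *RPS27A*, which encodes a ubiquitin joined to a ribosomal protein, was at 43.7 and 36.5 FPKM from TSS12934 and at 24.0 and 15.7 from TSS25590 (log2 difference -0.59, just past 1.5-fold). It was the only member among 77 cytosolic ribosomal protein genes found, of which 13 list several promoters, and none of the 13 shifted by 10 points. *FKBP2*, a prolyl isomerase of the endoplasmic reticulum, was at 16.4 and 8.72 FPKM from TSS6884 and at 10.4 and 6.79 from TSS25057, and its sum fell from 26.7 to 15.5.

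Among signalling and membrane proteins, *PRLR*, the prolactin receptor, was one of the most abundant members at 152 FPKM in EtOH and 162 in R5020. Its TSS16988 was at 119 and 132 FPKM and its TSS25185, the one at an internal exon edge, at 32.5 and 30.7, a shift of 2.47 points. Without TSS25185 *PRLR* would not meet the rule, and whether that edge is a true start was not tested. *YWHAZ*, a 14-3-3 adaptor, had the highest sum (191 and 204 FPKM). Its qualifying promoters were at 77.1 and 76.5 FPKM (TSS7091) and at 114 and 101 (TSS25368), and its shift of 12.8 points came mainly from TSS18649, listed at 0 in EtOH and at 26.2 FPKM in R5020. Without that promoter the shift was 2.75 points.

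*ENSA*, an inhibitor of a mitotic phosphatase, was at 126 and 107 FPKM from TSS16111. From TSS4697, 489 bp downstream, it was at 30.2 and 11.3 FPKM (log2 difference -1.34), and the shift of 9.84 points stayed under 10. This promoter had 3179 read equivalents in EtOH and 2837 in R5020. In EtOH they were all assigned to NM_207046, of 1103 nt, and in R5020 to NM_207047, of 2730 nt, so that a similar number of reads gave a lower FPKM. At the other promoter, TSS16111, the long transcript NM_207044, of 2866 nt, was at 11.7 FPKM in EtOH and 0 in R5020. Long forms were thus assigned to different promoters in the libraries. By read equivalents the shift of *ENSA* was 2.82 points, a value that rests on this assignment and does not show that TSS4697 was steady. *SPINT1*, a protease inhibitor of epithelia, *RTN4*, a reticulon, and *GOLM1*, a Golgi protein, were the steadiest members, with shifts of 0.168, 0.563 and 0.680 points. *RTN4* kept that balance across starts 40264 bp apart.

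*DSCAM-AS1*, a long noncoding RNA known from luminal breast cancer, had the largest fall as a gene, from 84.2 FPKM in EtOH to 25.1 in R5020. Its 2 promoters differ by 1 bp in start. TSS25040 went from 72.9 to 13.5 FPKM (log2 difference -2.35) and TSS3213 was at 11.3 and 11.6 FPKM, a shift of 32.9 points. TSS25040 sums 3 transcripts. NR_038896 was at 21.9 FPKM in EtOH and listed at 0 in R5020, NR_038898 at 33.5 and 5.24, and NR_038900 at 17.4 and 8.24. With starts this close, the shift depends on how reads were assigned to transcripts. *DSCAM-AS1* overlaps *DSCAM* on the other strand, and how strand was treated in quantification is not given in the sources used here. *CDV3* fell evenly from both promoters, from 57.0 to 31.9 FPKM and from 25.2 to 13.2, with a shift of 1.45 points. *UBAP2L*, a component of RNA granules, and *TTC3*, a ubiquitin ligase, had shifts of 0.997 and 3.79 points.

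The shift was set beside the distance between starts. Among the 16 genes with starts within 500 bp, 4 shifted by 10 points or more and the median was 5.63. Among the 15 with starts farther apart, 3 did so and the median was 3.79. When start groups within 500 bp of each other were merged into 1 promoter, *CYB561*, *DSCAM-AS1*, *NME2*, *ENSA*, *EEF1D* and *MATR3* had a shift of 0, their qualifying starts being 1 promoter then. *GLUL*, *SATB1* and *YWHAZ* kept their values, and *HNRNPF* went to 12.0 points.

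**Figure D4:**
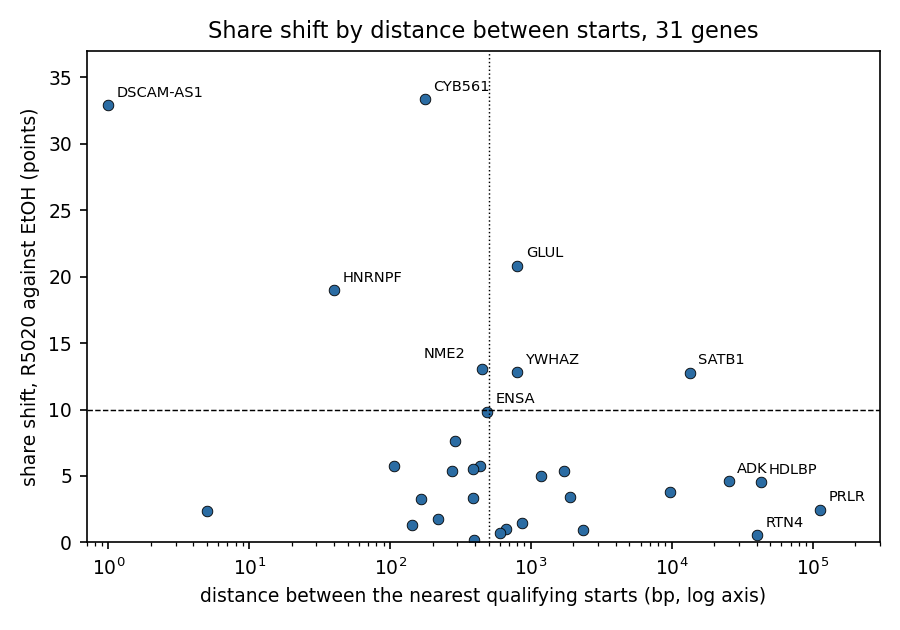
Share shift in percentage points (y) against the distance between the nearest qualifying starts in bp (x, log axis) for the 31 genes. The dashed line is 10 points and the dotted line 500 bp: 4 genes lie above 10 points to the left of it and 3 to the right, and the 4 genes with starts more than 20 kb apart stay under 5 points.

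Membership turned on small differences near the threshold. The lower qualifying promoter was at 10.4 FPKM in *FKBP2*, 11.1 in *HNRNPL* and 11.2 in *GOLM1*. Just outside, the second promoter was at 9.94 FPKM in *SET*, 9.64 in *PLA2G16* and 9.60 in *ZMYND11*. With the rule applied to R5020, 28 of the 31 stayed, *CYB561*, *FKBP2* and *SATB1* dropped out and 14 other genes came in, 42 in all. Among the 14, *PFKFB3*, which makes an activator of glycolysis, was at 5.73 and 34.5 FPKM from TSS10298 and at 0.843 and 18.6 from TSS17784. *PPP1CB*, a phosphatase subunit, was at 6.66 and 24.1 FPKM from its second promoter, TSS5825, with TSS25283 at 22.9 and 28.7. These 2 were picked after their values were seen. Of 8 genes whose transcript pairs the study names, none was a member. In *NET1*, an activator of the small GTPase RhoA, TSS17769 was at 2.55 FPKM in EtOH and 57.7 in R5020. TSS1862 was at 3.99 in EtOH and listed at 0 in R5020, where a 0 can be a failed estimate. The study itself reported the transcript of TSS1862 at similar levels above 0 in both conditions. Its quantitative PCR found that transcript stable after progestin, so the 0 is not to be read as a loss. Of 24 textbook genes with several promoters, 23 were found, 16 listed several promoters in the files and *PRLR* was the only member. *VDAC2* was the only member among 38 mitochondrial genes, of which 6 listed several promoters. Lists of PR chaperones, luminal factors, small GTPases with their regulators, the actin cytoskeleton, epithelial and secretory proteins, and glycolysis held none.

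The ChIP-seq file held 11181 PR sites with MACS scores (-10 × log10 of the peak p-value) from 50 upward. A site edge lay within 5 kb of 14 of the 63 starts (22.2%, Wilson 95% interval 13.7 to 33.9%). The share was 17.7% of all 2940 starts at 10 FPKM in EtOH (16.4 to 19.1%). These intervals cover counting error only and treat every start as independent. Starts of the same gene often lay near the same site, so the interval of the members is too narrow. At 1, 10 and 50 kb the shares were 17.5%, 25.4% and 52.4% for the members and 12.3%, 23.5% and 51.4% for all. The 14 starts belonged to 8 genes: *ADK*, *DSCAM-AS1*, *EEF1D*, *FKBP2*, *HDLBP*, *KIAA0182*, *NME2* and *PRLR*. At this distance, 1 promoter was higher and 3 were lower in R5020 of the 14 with a site, and 1 was higher and 8 lower of the 49 without. Over all starts at 10 FPKM, 8.45% of those with a site and 4.26% of those without were higher, and 7.29% and 5.04% lower.

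A site covered the start itself at 4 of the 63 promoters, as at 126 of the 2940 (4.29%). These were TSS26137 of *ADK* (score 80.5), both promoters of *KIAA0182* (102 and 163) and TSS3314 of *NME2* (102). In *NME2* the covered promoter was the one that kept its level, and the site edge lay 0.275 kb from TSS24308, which was lower. In *ADK* the site covered the upstream promoter only, 25304 bp from the other, and neither passed 1.5-fold. *KIAA0182* stood apart in number, with 54 sites within 50 kb of the gene and 29 inside it. For *PRLR* a site lay 0.118 kb downstream of TSS16988 (score 121) and another 1.34 kb upstream of TSS25185 (66.8), and *HDLBP* had a site 0.378 kb downstream of TSS23404 (90.5) with its other start 42.2 kb away.

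**Figure D5:**
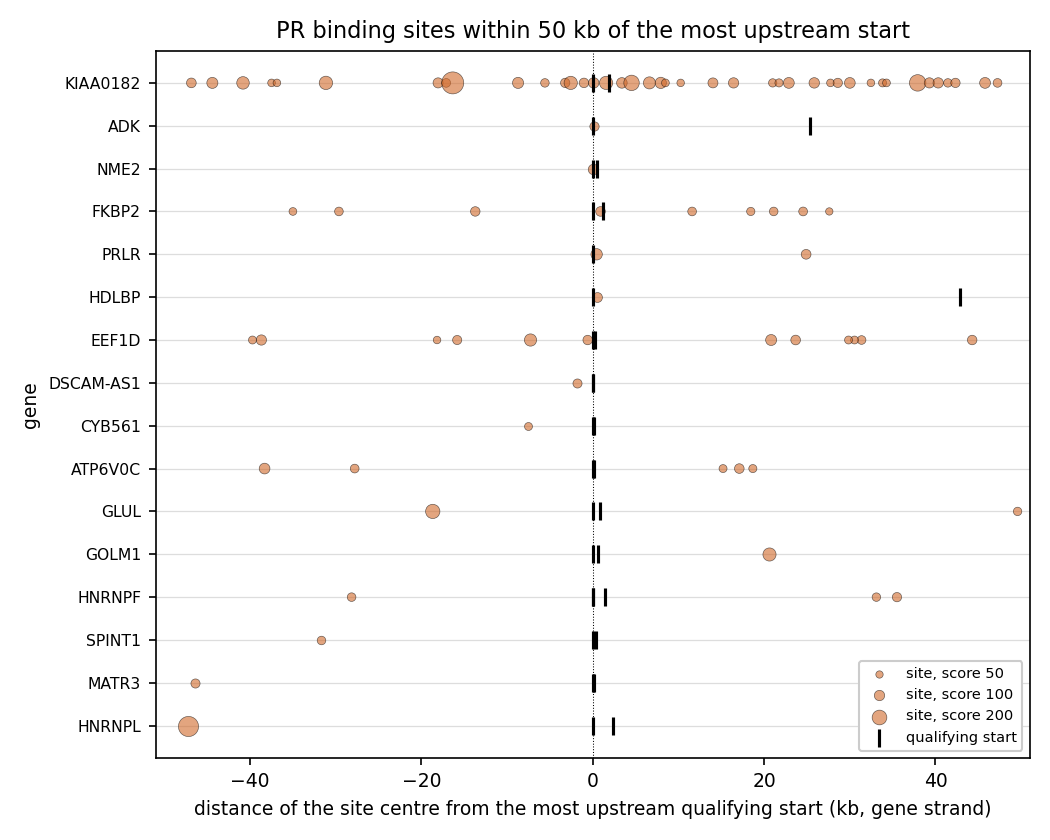
PR sites (circles, area in proportion to the MACS score) within 50 kb of the most upstream qualifying start in the 16 member genes that have any, by distance of the site centre from that start in kb along the gene's strand; vertical ticks are the qualifying starts. *KIAA0182* carries a row of sites on both sides, while *GLUL* has the centre of its nearest site 18.7 kb upstream and *NME2* a single site at its start.

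Of the 7 genes with a shift of 10 points, 2 had a site within 5 kb of a start, *NME2* and *DSCAM-AS1* (1.60 kb upstream, score 76.6). The nearest site to a *GLUL* start was 18.5 kb upstream with a score of 189, and the nearest to *CYB561* was 7.33 kb upstream with 58.8. In *HNRNPF*, *YWHAZ* and *SATB1* it was 28.0, 74.6 and 249 kb away. The core letters of a hormone response element, ACANNNTGT, which read the same on both strands, were found in 2 of the 16 sites within 5 kb of a member start (12.5%) and in 11.6% of all 11181 sites. In the promoter windows they were found in 1 of the 63 (1.59%) and in 2.21% of the 2940. Both of these sites lie at *KIAA0182*, and 61 bases of each are shown on the plus strand of chromosome 16 with the match in capitals, from chr16:85646302-85646362 in the site that covers TSS16575 and from chr16:85649248-85649308 in the site of score 220 downstream.
KIAA0182 site at TSS16575: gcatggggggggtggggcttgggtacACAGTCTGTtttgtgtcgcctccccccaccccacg
KIAA0182 downstream site: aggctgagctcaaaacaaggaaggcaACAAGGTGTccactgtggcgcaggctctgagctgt
A match of these letters is a description of the sequence, and their absence from the other 14 sites says only that this exact form is not there.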

How the data were processed

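RNA-seq and PR ChIP-seq from T47D cells were analysed. For the deposited FPKM and coverage values, the authors aligned 50-bp paired-end reads to hg19 with TopHat2, discarding reads with several positions, and quantified transcripts with RefSeq identifiers by Cufflinks, whose interval columns were also used. The deposited site score is from MACS with input DNA as the control, after Bowtie (version 1.1.2 in the submitters' processing notes). FPKM was summed by start group and gene with Python 3.11.15 and pandas 2.3.3, with no filter. Strand, which the files lack, came from GENCODE by accession for 36130 transcripts, by symbol for 1146 and by synonym for 296, and 3566 were unmatched. The start was the 5′ end of the promoter's highest transcript in EtOH. Genes named were those with the 10 largest shifts, the 5 largest promoter rises and falls, the 5 highest sums, the 5 highest sites within 5 kb, genes at the threshold, list members and the study's pairs; the remaining members are given for completeness. Members and lists were chosen with earlier results of these data known. The steps were tested on simulated data. With 1 library per condition no test was made. Reads of *RPS27A*, *HNRNPK*, *YWHAZ*, *EEF1D* and *NME2*, which have near-identical copies in the genome, are uncertain.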

Additional observations from a re-analysis of the deposited data

How the results depend on the processing

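With the threshold at 5 FPKM there were 100 members, at 20 FPKM 13, and with starts within 500 bp merged 17, of which 16 were among the 31. At 2-fold, 1 promoter was higher and 5 lower, and 2 genes were lower. With 0.1 added to each FPKM in place of 1, 3 promoters were higher and 12 lower. Rescaling R5020 to a median log2 ratio of 0 left 1 higher promoter (*GLUL*), and promoters at 10 FPKM in both libraries held 7 lower. With R5020 choosing genes and promoters, an alternative added after seeing the data, 10 were higher and 7 lower. With read equivalents in place of FPKM, not scaled for library size and also added, 1 was higher. A share shift of 20 points was reached by 3 genes, of 5 points by 15, and of 10 points after merging by 4. A site within 50 kb was found for 33 starts, and a site of score 100 or more within 5 kb for 5. The other alternatives stayed within 1.5 times the reported counts. No paired analysis was possible because each condition had 1 library, and no replicate could be left out. A value listed at 0 can be a failed estimate and was used as deposited. No transcript of the members had a failed quantification status, so a 0 among them was not flagged as failed.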

Other observations

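Of the genes that met the rule in R5020 only, *EIF5A*, a translation factor, was at 27.9 FPKM in EtOH and 25.4 in R5020 from TSS7475 and at 4.58 and 12.6 from TSS19911. *MAGED1*, a member of the MAGE family, was at 16.0 and 10.8 FPKM from TSS1613 and at 4.87 and 10.5 from TSS22433. In *CRNDE*, a long noncoding RNA, TSS11777 was at 25.6 and 14.8 FPKM and TSS12789 at 8.80 and 11.7. *ZMYND11*, a reader of histone marks, was higher from both promoters, at 16.1 and 30.9 FPKM from TSS26135 and at 9.60 and 15.8 from TSS23073. These 4 were picked from the 14 after their values were seen.

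Of the 115 transcripts listed for the 31 members, 46 (40%) were listed at 0 FPKM in EtOH and 48 in R5020. Among the 1970 transcripts of the other genes with at least 2 promoters and 10 FPKM in both libraries, 60.2% were listed at 0 in EtOH. The rule itself required several transcripts above 0, so this is a description of the lists.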
